A study of Mus musculus with 30 samples.

Results

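The DNA replication machinery is described here as 41 genes, taken by symbol from the tables of gene counts for hematopoietic stem cells (HSCs) and multipotent progenitors (MPPs) of mouse bone marrow. They cover origin licensing, the replisome, nucleotide supply, chromatin assembly and entry into S phase. All 41 symbols were among the 55471 genes of each table. The filter on low counts kept 40 of them in HSCs, where Fen1 was removed, and 41 in MPPs. The rule names genes and holds no measured value, but it was proposed with earlier results of these data known. HSCs of C57BL/6 mice gave 7 pools from animals given phosphate-buffered saline (PBS) and 6 from animals given MTP10-HDL, and MPPs gave 2 PBS and 3 MTP10-HDL pools. MTP10-HDL is a nanoparticle of high-density lipoprotein that carries muramyl tripeptide, a derivative of a bacterial cell wall fragment that is sensed through Nod2. Each RNA sample pooled 4 mice, so the p-values measure the spread between pools, and any difference between single mice is hidden. For MPPs the labels give 3 injections within 5 days, bone marrow taken the day after, depletion of lineage-positive cells and sorting by flow cytometry. The schedule and sort of the HSC samples, and the age and sex of all mice, are not stated in the sources used here.

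Before S phase, the origin recognition complex, Cdc6 and Cdt1 load the ring of MCM2 to MCM7 onto DNA. Mcm10, Cdc45 and the GINS complex then turn that ring into a moving helicase, behind which primase and DNA polymerases copy both strands with the help of the Pcna clamp. Many of these genes are transcribed under E2F factors as cells leave G1, and most adult HSCs are quiescent while MPPs divide more often.

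The HSC libraries held 4064155 to 7879858 counts and overlapped in depth between treatments. In MPPs the PBS libraries held 11252479 to 14691375 counts and the MTP10-HDL libraries 17555267 to 32769369, so treatment and depth cannot be told apart there. The stem and progenitor markers Kit, Cd34, Procr, Mecom and Hlf were detected in every library of both cell types, and Slamf1, a marker of long-term HSCs, was too, at 23.9 to 47.8 CPM in HSCs. In MPPs it was at 0.649 to 2.04 CPM. Levels are given as CPM, counts brought to a common library depth with TMM factors (trimmed mean of M-value ratios). HSC library MTP10-HDL 1 stood apart from the other MTP10-HDL libraries in the replication genes and in mitosis genes. The member counts at an unadjusted p are given with and without it. HSC and MPP libraries were made with different kits, so these Slamf1 values are not set against each other, and levels are compared only within a cell type. Levels are also not compared between genes, because CPM are not divided by transcript length.

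Replication genes were mostly higher after MTP10-HDL, with a larger median in MPPs than in HSCs. No single gene passed the false discovery rate (FDR) of 0.05, and no member was called for a difference in response between the cell types. Kit and cell type cannot be told apart in that difference. In HSCs 34 of the 40 tested members (85.0%) had a log2 fold change above 0, against 47.7% of all 16631 genes tested and 59.0% of those with a mean of at least 10 CPM. The median member was at log2 0.23, the median of all genes at -0.02 and that of genes with at least 10 CPM at 0.06. In MPPs all 41 members were higher in MTP10-HDL, against 52.0% of all 15449 genes tested and 59.7% of those with at least 10 CPM. The median member there was at log2 0.46, against 0.02 for all genes and 0.07 for those with at least 10 CPM. Neither cell type had a member past the FDR threshold, and neither had any gene of the table past it (0% called in each). The smallest adjusted p among members was 0.380 in HSCs and 0.449 in MPPs by edgeR's quasi-likelihood test with Benjamini-Hochberg adjustment. DESeq2 called 108 genes in HSCs and 163 in MPPs, and none of them was a member.

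At an unadjusted p under 0.05, 9 of 40 members (22.5%) were higher in HSCs, where 4.36% of all genes and 6.72% of those with at least 10 CPM were. They were Mcm5, Mcm6, Mcm10, Rfc4, Pola2, Pole, Lig1, Tyms and Chaf1b. In MPPs 15 of 41 (36.6%) were higher at that level, where 2.17% of all genes and 2.81% of those with at least 10 CPM were. No member was lower at that level in either cell type, against 4.47% of all genes in HSCs and 4.06% in MPPs. Every MTP10-HDL pool lay above every PBS pool for 32 of 41 members (78.0%) in MPPs, against 12.0% of all genes and 15.2% of those with at least 10 CPM. In HSCs that held for 0 of 40 members, against 0.174% of all genes. The members share the same libraries and are not independent of each other, so these counts describe the list and are not a test of it.

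The counts at an unadjusted p depended on single libraries, while the directions did so little. In HSCs the count of 9 became 19 without MTP10-HDL 1 (47.5%, all genes 4.78%) and 15 without PBS 1 (37.5%, all genes 6.19%). It was 5 without PBS 7 (12.5%, all genes 3.16%) or MTP10-HDL 4 (all genes 4.22%), 4 without MTP10-HDL 5 (10%, all genes 4.23%) and 5 of 41 with DESeq2 (12.2%, all genes 1.64%). Without PBS 5 and PBS 7 together it was 2 (5%), near the 2.77% of all genes. In MPPs the count of 15 became 1 without PBS 2 (2.44%, all genes 1.26%), 3 without PBS 3 (7.32%, all genes 1.15%) or MTP10-HDL 1 (all genes 1.42%), and 9 without MTP10-HDL 3 (22.0%, all genes 2.40%). Between 32 and 35 members stayed above 0 in HSCs whichever library was left out, with a median of 0.20 to 0.33 and the highest without MTP10-HDL 1. In MPPs 40 or 41 did so, with a median of 0.45 to 0.50.

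**Figure D1:**
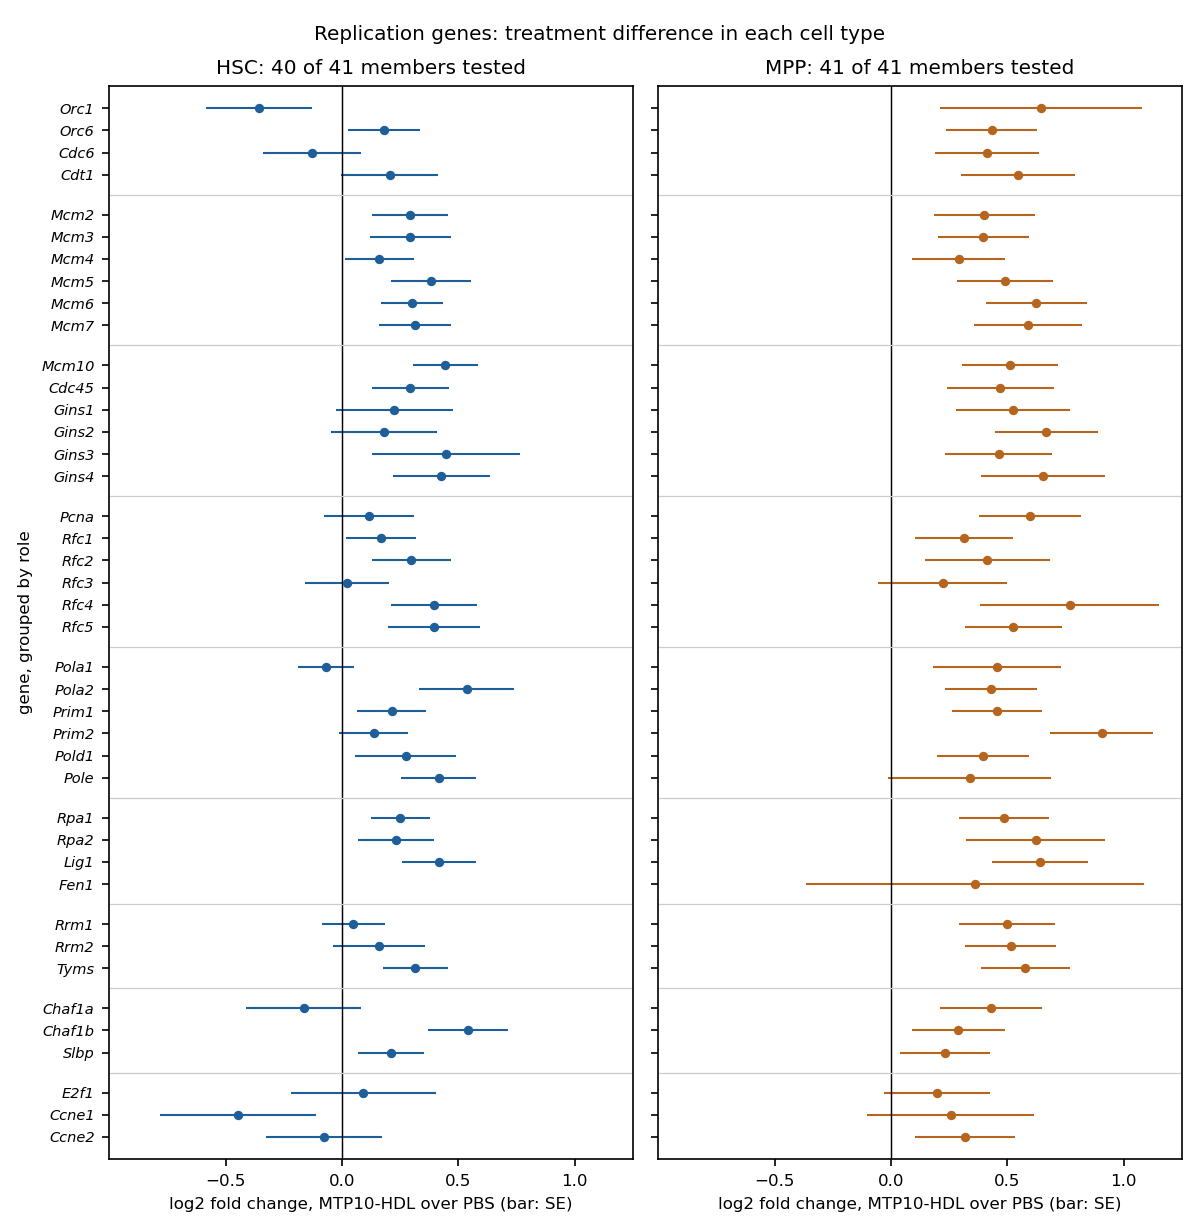
Log2 fold change of MTP10-HDL over PBS (x axis) for each member (y axis, grouped by role) in HSCs (left, 7 and 6 pools) and MPPs (right, 2 and 3 pools), with bars of 1 SE. In HSCs 34 of 40 points lie right of 0 and the points left of it are Orc1, Cdc6, Pola1, Chaf1a, Ccne1 and Ccne2, whereas in MPPs all 41 lie right of 0.

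Many promoters of the members held words of the E2F type. The choice of genes did not use these words, but many of the genes are transcribed under E2F factors, so the 2 are not independent. RefSeq promoter windows (assembly GRCm38.p6, from 250 bases before to 50 after a transcript start) were found for 33 of the 41 members, 37 windows in all. The E2F-type words searched were TTCCCGC, its close variant TTGGCGC, another variant TTCGCGC, and finally the variant TTGCCGC, on both strands, with overlapping words counted separately. At least 1 of these words was in 23 of the 37 windows (62.2%), against 9.57% of all 32851 windows and 3 of 18 windows (16.7%) of a list of mitosis genes. The windows compared were not matched for base composition. The stretches below show these words in capitals, 5′ to 3′ on the gene's own strand, for 8 members. These members were picked from several roles among those with words upstream of the start, and not all such members are shown.
Orc1 (chr4:108579394-108579453, plus strand): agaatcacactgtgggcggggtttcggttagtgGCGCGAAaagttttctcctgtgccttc
Cdc6 (chr11:98908001-98908040, plus strand): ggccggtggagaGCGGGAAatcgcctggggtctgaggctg
Mcm5 (chr8:75109334-75109378, plus strand): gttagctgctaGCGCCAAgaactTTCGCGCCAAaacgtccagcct
Mcm6 (chr1:128359736-128359820, minus strand): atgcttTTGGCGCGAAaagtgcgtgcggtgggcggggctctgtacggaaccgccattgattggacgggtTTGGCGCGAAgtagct
Prim1 (chr10:128015155-128015214, plus strand): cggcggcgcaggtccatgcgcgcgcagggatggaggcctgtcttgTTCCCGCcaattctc
Rpa2 (chr4:132768300-132768359, plus strand): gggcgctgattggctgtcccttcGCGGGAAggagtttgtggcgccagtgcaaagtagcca
Rrm1 (chr7:102441605-102441654, plus strand): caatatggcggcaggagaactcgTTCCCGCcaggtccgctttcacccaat
Chaf1a (chr17:56040356-56040415, plus strand): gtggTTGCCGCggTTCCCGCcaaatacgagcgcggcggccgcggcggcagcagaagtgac
Mcm6 carried 4 such words in that stretch, at -109, -106, -46 and -43 from the start, in 2 overlapping pairs. Mcm5 carried 3, at -164, -152 and -149, and Chaf1a carried 2, at -56 and -47. The CCAAT box was in 22 member windows (59.5%), against 37.4% of all windows and 88.9% of the mitosis windows. The words TTTGAA and (less often used) TTCGAA of the cell cycle homology region (CHR), found in many mitotic promoters, were in 16.2% of member windows, 19.2% of all windows and 77.8% of mitosis windows.

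**Figure D2:**
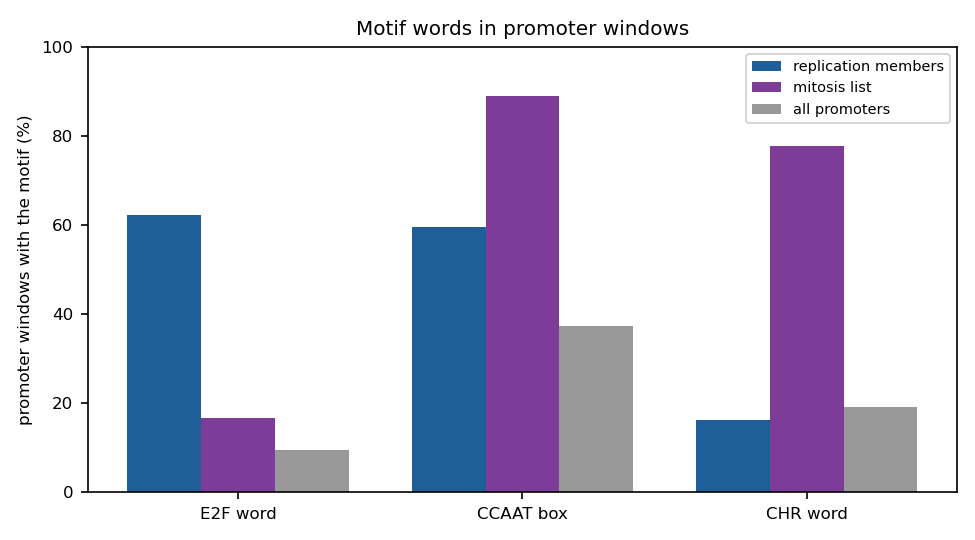
Share of promoter windows (y axis, percent) that hold an E2F word, a CCAAT box or a CHR word (x axis) for the replication members (37 windows), the mitosis list (18 windows) and all promoters (32851 windows). E2F words are at 62.2% in members and 16.7% in the mitosis list, and CHR words at 16.2% and 77.8%.

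Holding an E2F word did not go with a larger difference among the members. In HSCs the median log2 fold change was 0.22 for the 20 tested members with a word and 0.27 for the 12 with a window and no word. The MPP medians were 0.46 for 21 members with a word and 0.45 for 12 without. The members with a window and no word were Orc6, Mcm2, Mcm10, Cdc45, Pcna, Rfc5, Pola2, Rpa1, Tyms, Slbp, E2f1 and Ccne1. Such a match is a string of letters, and binding at these promoters was not measured in the counts. On the genome the members lay on 14 chromosomes, with 8 of them on chromosome 5, among them Rfc1, Rfc2, Rfc3 and Rfc5.

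Origin licensing was the role group in which HSCs and MPPs looked least alike. Its 4 genes had a median log2 fold change of 0.03 in HSCs, with 2 above and 2 below 0, and of 0.49 in MPPs, with 4 above. Cdc6, the ATPase that helps load MCM rings, ran from 34.2 to 71.1 CPM with a median of 41.5 in the 7 PBS pools, and from 27.6 to 55.5 CPM with a median of 44.7 in the 6 MTP10-HDL pools in HSCs. The groups overlapped, and the difference of log2 -0.13 (SE 0.21, edgeR adjusted p = 0.860) turned to 0.011 without PBS 1, its highest PBS pool at 71.1 CPM. In MPPs Cdc6 was at 67.4 and 56.3 CPM in the PBS pools and 94.5, 83.0 and 69.2 CPM in the MTP10-HDL pools. The MPP groups did not overlap, at log2 0.41 (SE 0.22, edgeR adjusted p = 0.840). Orc1, the largest subunit of the origin recognition complex, ran from 14.7 to 31.5 CPM with a median of 19.0 in the 7 PBS pools, and from 9.23 to 21.4 CPM with a median of 17.2 in the 6 MTP10-HDL pools in HSCs. All but 1 of the MTP10-HDL pools lay below the PBS median, at log2 -0.36 (SE 0.23, edgeR adjusted p = 0.654). Its MPP values were 11.0 and 9.20 CPM in the PBS pools and 18.4, 7.88 and 21.1 CPM in the MTP10-HDL pools, with MTP10-HDL 2 below both PBS pools, at log2 0.64 (SE 0.44). The gene span of Orc1 overlaps the antisense RNA Gm12743 over 39.5% of its length, and the strand setting of the counting is not given in the sources used here. For Cdt1, the loader that geminin inhibits, HSC values ran from 25.2 to 57.8 CPM with a median of 32.9 in the 7 PBS pools, and from 24.6 to 53.9 CPM with a median of 45.3 in the 6 MTP10-HDL pools, at log2 0.21 (SE 0.21). Cdt1 in MPPs was at 77.2 and 72.7 CPM in the PBS pools and 105, 137 and 85.9 CPM in the MTP10-HDL pools, every MTP10-HDL pool above both PBS pools, at log2 0.54 (SE 0.25, edgeR adjusted p = 0.806). Orc6 was at log2 0.18 (SE 0.16) in HSCs and log2 0.43 (SE 0.20) in MPPs.

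The 6 subunits of the MCM ring were all above 0 in both cell types. Their log2 fold changes lay between 0.16 and 0.38 in HSCs (median 0.30) and between 0.29 and 0.62 in MPPs (median 0.45). Mcm6, whose promoter holds the paired E2F words shown above, ran from 217 to 313 CPM with a median of 229.7 in the 7 PBS pools, and from 213 to 355 CPM with a median of 305 in the 6 MTP10-HDL pools in HSCs. Of the MTP10-HDL pools 5 of 6 lay above the PBS median and the lowest of all 13 was MTP10-HDL 1, for a difference of log2 0.30 (SE 0.13, edgeR adjusted p = 0.550). In MPPs Mcm6 was at 529 and 605 CPM in the PBS pools and 924, 894 and 804 CPM in the MTP10-HDL pools. These groups were apart, by log2 0.62 (SE 0.22, edgeR adjusted p = 0.725), which is 54.0% on the linear scale. Mcm2, often used to mark licensed cells, ran from 92.5 to 153 CPM with a median of 125 in the 7 PBS pools, and from 93.0 to 195 CPM with a median of 157 in the 6 MTP10-HDL pools in HSCs, with 3 of 6 MTP10-HDL pools above every PBS pool, at log2 0.29 (SE 0.16, edgeR adjusted p = 0.595). The MPP values of Mcm2 were 231 and 192 CPM in the PBS pools and 278, 246 and 315 CPM in the MTP10-HDL pools, again without overlap, at log2 0.40 (SE 0.22, edgeR adjusted p = 0.838). Every MCM2 to MCM7 gene had all MPP MTP10-HDL pools above all MPP PBS pools. That held for 78.0% of all members, 12.0% of all genes and 15.2% of those with at least 10 CPM. In HSCs Mcm5 at log2 0.38 (SE 0.17) was the furthest from 0 of these MCM genes.

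In helicase activation all 6 genes were above 0 in both cell types, with a median of 0.36 in HSCs and 0.52 in MPPs. Mcm10, which helps the loaded ring start to unwind DNA, ran from 44.2 to 57.1 CPM with a median of 47.1 in the 7 PBS pools, and from 47.4 to 83.4 CPM with a median of 67.8 in the 6 MTP10-HDL pools in HSCs. Of the MTP10-HDL pools 5 of 6 lay above every PBS pool, and the exception was MTP10-HDL 1 at 47.4 CPM. Its difference was log2 0.44 (SE 0.14, edgeR adjusted p = 0.380), or 36.1%, and 0.53 without MTP10-HDL 1. Mcm10 in MPPs was at 55.3 and 53.3 CPM in the PBS pools and 86.7, 67.2 and 78.4 CPM in the MTP10-HDL pools, apart by log2 0.51 (SE 0.21, edgeR adjusted p = 0.787). Gins2, a subunit of the GINS complex that bridges MCM and Cdc45, ran from 19.5 to 42.3 CPM with a median of 37.8 in the 7 PBS pools, and from 25.9 to 68.4 CPM with a median of 39.3 in the 6 MTP10-HDL pools in HSCs. The high value was MTP10-HDL 4, and the difference of log2 0.18 (SE 0.23) became -0.029 without it. In MPPs Gins2 was at 24.6 and 27.2 CPM in the PBS pools and 36.4, 47.4 and 39.6 CPM in the MTP10-HDL pools, apart by log2 0.67 (SE 0.22, edgeR adjusted p = 0.688). Cdc45 was at log2 0.29 (SE 0.17) in HSCs and log2 0.47 (SE 0.23) in MPPs, and Gins1, Gins3 and Gins4 lay between log2 0.22 and 0.45 in HSCs and between 0.46 and 0.65 in MPPs.

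**Figure D3:**
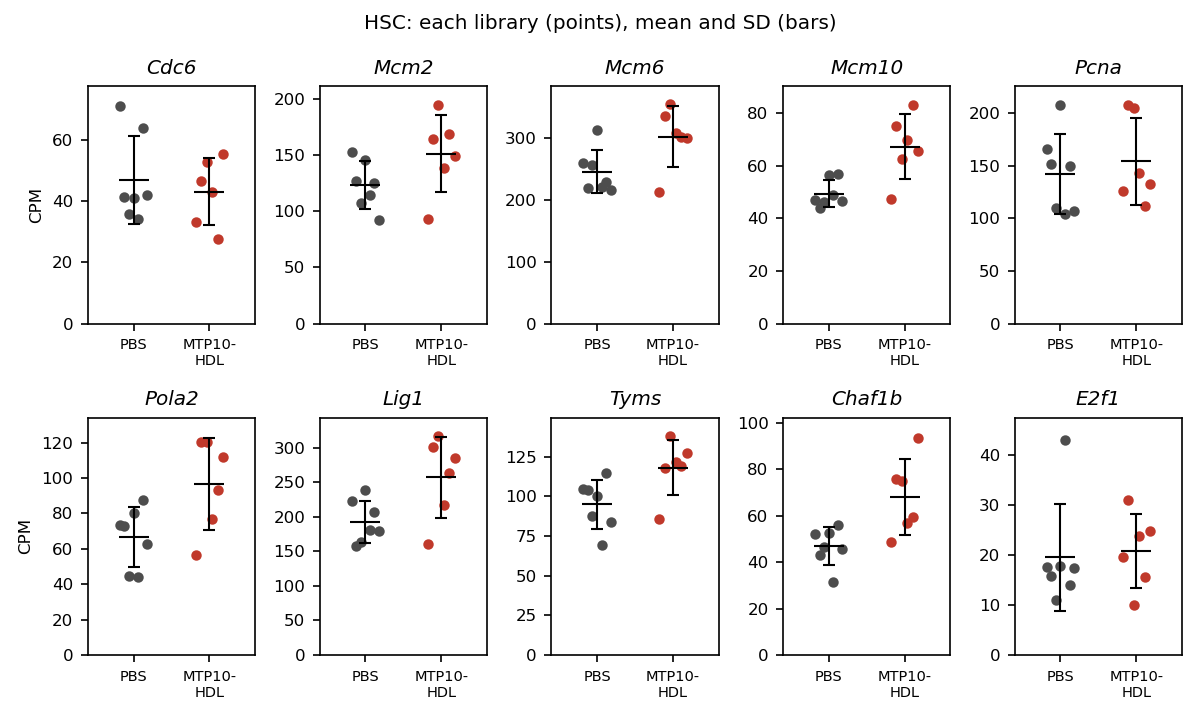
CPM in each HSC library (y axis, starting at 0) for 10 members, PBS (grey, 7 pools) against MTP10-HDL (red, 6 pools), with mean and SD. For Mcm10, Tyms and Chaf1b 5 of 6 MTP10-HDL points lie above every PBS point, and for Cdc6 and E2f1 none does. The groups overlap for all 10 genes.

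The clamp and its loader had medians of 0.23 in HSCs and 0.47 in MPPs, with all 6 genes above 0 in each. Pcna, the ring that tethers polymerases to DNA, ran from 104 to 208 CPM with a median of 150.1 in the 7 PBS pools, and from 111 to 208 CPM with a median of 138 in the 6 MTP10-HDL pools in HSCs. Both groups covered nearly the same range, at log2 0.12 (SE 0.19, edgeR adjusted p = 0.862), and the value was -0.027 without PBS 5 and PBS 7. In MPPs Pcna was at 203 and 262 CPM in the PBS pools and 322, 379.8 and 351 CPM in the MTP10-HDL pools, apart by log2 0.60 (SE 0.22, edgeR adjusted p = 0.736). Rfc4, a subunit of replication factor C, which opens the clamp and puts it on DNA, ran from 19.3 to 32.5 CPM with a median of 27.1 in the 7 PBS pools, and from 20.6 to 43.7 CPM with a median of 36.7 in the 6 MTP10-HDL pools in HSCs, with 4 of 6 MTP10-HDL pools above every PBS pool, at log2 0.40 (SE 0.18, edgeR adjusted p = 0.562). Rfc4 in MPPs was at 30.6 and 43.1 CPM in the PBS pools and 65.6, 87.4 and 35.1 CPM in the MTP10-HDL pools. MTP10-HDL 3 lay between the PBS pools, so the log2 0.77 (SE 0.38) rested on the other two. Of the remaining loader subunits, Rfc3 was nearest to 0 in both cell types, at log2 0.02 (SE 0.18) in HSCs and log2 0.22 (SE 0.28) in MPPs, and Rfc5 was at log2 0.39 (SE 0.20) and log2 0.53 (SE 0.21).

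Among polymerases and primase the member furthest from 0 was not the same gene in the 2 cell types. Pola2, the regulatory subunit of DNA polymerase alpha, ran from 44.3 to 87.8 CPM with a median of 72.7 in the 7 PBS pools, and from 56.3 to 121 CPM with a median of 103 in the 6 MTP10-HDL pools in HSCs. Of the MTP10-HDL pools 4 of 6 lay above every PBS pool, at log2 0.54 (SE 0.20, edgeR adjusted p = 0.492). Pola2 in MPPs was at 105 and 90.4 CPM in the PBS pools and 142, 127 and 125 CPM in the MTP10-HDL pools, without overlap, at log2 0.43 (SE 0.20, edgeR adjusted p = 0.811). Prim2, the large subunit of primase, was the member furthest from 0 in MPPs, at 45.9 and 44.7 CPM in the PBS pools and 74.7, 78.6 and 101 CPM in the MTP10-HDL pools. The lowest MTP10-HDL pool lay well above both PBS pools, and the difference was log2 0.90 (SE 0.22, edgeR adjusted p = 0.449), or 87.2%. In HSCs Prim2 ran from 46.2 to 63.0 CPM with a median of 52.3 in the 7 PBS pools, and from 40.3 to 71.8 CPM with a median of 60.6 in the 6 MTP10-HDL pools, overlapping, at log2 0.14 (SE 0.15). Pola1, the catalytic partner of Pola2, was at log2 -0.07 (SE 0.12) in HSCs and log2 0.45 (SE 0.28) in MPPs. Prim1, the catalytic primase subunit whose promoter word is shown above, was at log2 0.21 (SE 0.15) and log2 0.45 (SE 0.19). Pold1 and Pole, the catalytic subunits of the lagging-strand and leading-strand polymerases, were at log2 0.27 (SE 0.22) and log2 0.41 (SE 0.16) in HSCs and at log2 0.40 (SE 0.20) and log2 0.34 (SE 0.35) in MPPs.

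Lig1, the ligase that joins Okazaki fragments, was higher in both cell types. In HSCs it ran from 158 to 238 CPM with a median of 181 in the 7 PBS pools, and from 160.5 to 316 CPM with a median of 275 in the 6 MTP10-HDL pools. Of the MTP10-HDL pools 4 of 6 lay above every PBS pool, at log2 0.42 (SE 0.16, edgeR adjusted p = 0.494). In MPPs Lig1 was at 223 and 223 CPM in the PBS pools and 343, 391 and 309 CPM in the MTP10-HDL pools, apart by log2 0.64 (SE 0.21, edgeR adjusted p = 0.673), or 55.8%. Rpa1 and Rpa2, subunits of the protein that coats single-stranded DNA, were at log2 0.25 (SE 0.13) and log2 0.23 (SE 0.16) in HSCs and at log2 0.49 (SE 0.19) and log2 0.62 (SE 0.30) in MPPs. Fen1, the nuclease that trims Okazaki fragments, had too few counts for a test in HSCs (0 to 1.79 CPM) and was at 0.973 to 2.45 CPM in MPPs, at log2 0.36 (SE 0.73). Its 5′ end overlaps Tmem258 on the other strand over 192 bases, 3.6% of its span, and whether that touches its counts was not tested.

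Nucleotide supply showed narrow groups in MPPs. All 3 genes were higher there at an unadjusted p under 0.05, between log2 0.50 and 0.58, and 1 of 3 was in HSCs. Tyms, which makes thymidine monophosphate, ran from 69.5 to 115 CPM with a median of 100.3 in the 7 PBS pools, and from 85.6 to 138 CPM with a median of 120.2 in the 6 MTP10-HDL pools in HSCs. Every MTP10-HDL pool but MTP10-HDL 1 lay above every PBS pool, at log2 0.31 (SE 0.14, edgeR adjusted p = 0.550). Its MPP values were 65.0 and 65.5 CPM in the PBS pools and 99.6, 103 and 89.6 CPM in the MTP10-HDL pools, apart by log2 0.58 (SE 0.19, edgeR adjusted p = 0.688). Rrm2, the cell-cycle-regulated subunit of ribonucleotide reductase, ran from 58.0 to 138 CPM with a median of 93.4 in the 7 PBS pools, and from 86.5 to 131 CPM with a median of 111 in the 6 MTP10-HDL pools in HSCs. No MTP10-HDL pool exceeded the highest PBS pool, at log2 0.16 (SE 0.20, edgeR adjusted p = 0.817). Rrm2 in MPPs was at 124 and 111 CPM in the PBS pools and 183, 156 and 163 CPM in the MTP10-HDL pools, apart by log2 0.51 (SE 0.20, edgeR adjusted p = 0.755). Rrm1, its partner subunit, was at log2 0.05 (SE 0.13) in HSCs and log2 0.50 (SE 0.21) in MPPs.

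**Figure D4:**
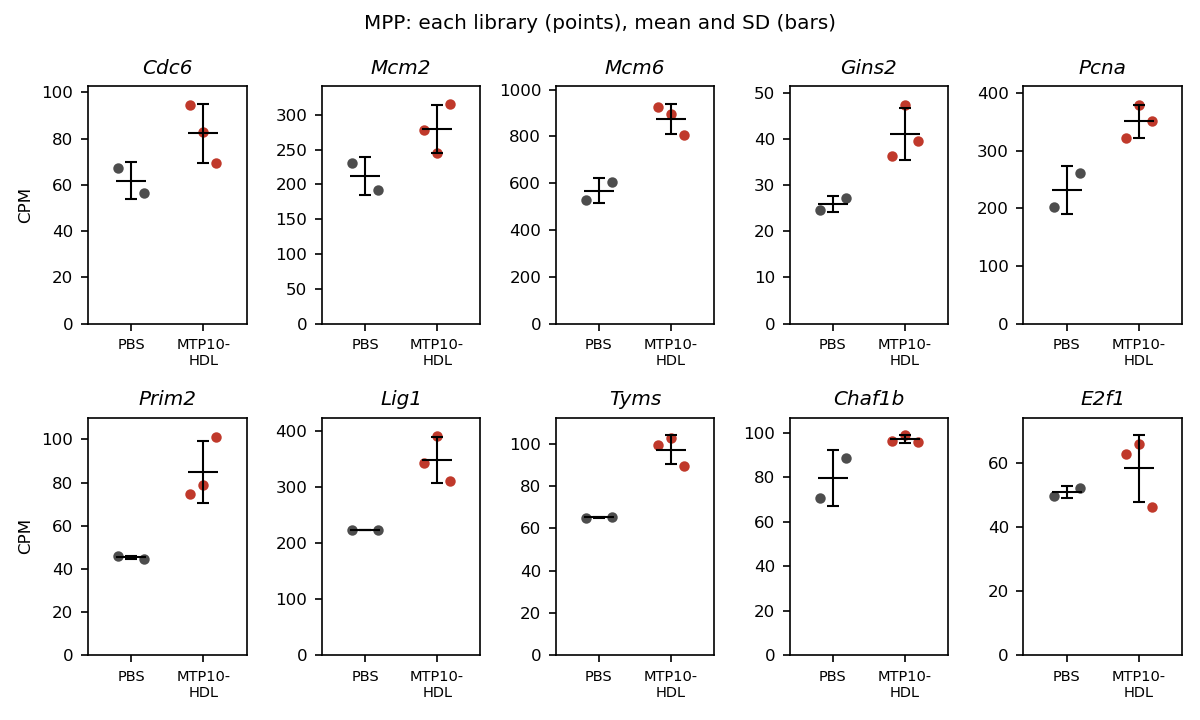
CPM in each MPP library (y axis, starting at 0) for 10 members, PBS (grey, 2 pools) against MTP10-HDL (red, 3 pools), with mean and SD. Every MTP10-HDL point lies above both PBS points for 9 of the genes shown, and for E2f1 MTP10-HDL 3 lies below both.

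Chromatin assembly split the 2 large subunits of CAF-1, the histone chaperone that deposits histones behind the fork. Chaf1b ran from 31.6 to 56.1 CPM with a median of 46.5 in the 7 PBS pools, and from 48.6 to 93.3 CPM with a median of 67.2 in the 6 MTP10-HDL pools in HSCs. Of the MTP10-HDL pools 5 of 6 lay above every PBS pool, and the difference of log2 0.54 (SE 0.17, edgeR adjusted p = 0.380) was the largest positive one of any member in HSCs, or 45.5%. Chaf1a, its partner subunit, ran from 20.7 to 52.0 CPM with a median of 35.0 in the 7 PBS pools, and from 20.4 to 43.7 CPM with a median of 30.2 in the 6 MTP10-HDL pools in HSCs, overlapping, at log2 -0.16 (SE 0.25). In MPPs Chaf1b was at 70.6 and 88.5 CPM in the PBS pools and 96.4, 99.2 and 95.8 CPM in the MTP10-HDL pools. The MPP groups of Chaf1b were apart but near each other, at log2 0.29 (SE 0.20, edgeR adjusted p = 0.875). Chaf1a in MPPs was at 57.4 and 53.5 CPM in the PBS pools and 61.2, 83.2 and 79.7 CPM in the MTP10-HDL pools, also apart, at log2 0.43 (SE 0.22). Slbp, which binds the stem-loop of histone mRNAs, was at log2 0.21 (SE 0.14) in HSCs and log2 0.23 (SE 0.19) in MPPs.

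The S phase entry genes had the smallest MPP median of the role groups, 0.26, and were centred near 0 in HSCs, at a median of -0.08. E2f1, the transcription factor that acts on many of the genes above, ran from 11.0 to 43.0 CPM with a median of 17.4 in the 7 PBS pools, and from 9.96 to 30.9 CPM with a median of 21.7 in the 6 MTP10-HDL pools in HSCs. The highest pool was PBS 5, the groups overlapped at log2 0.09 (SE 0.31, edgeR adjusted p = 0.937), and the value was 0.41 without PBS 5, -0.0087 without PBS 3 and -0.048 without MTP10-HDL 2. E2f1 in MPPs was at 49.6 and 52.4 CPM in the PBS pools and 62.9, 66.0 and 46.3 CPM in the MTP10-HDL pools, with 1 MTP10-HDL pool below both PBS pools, at log2 0.20 (SE 0.23, edgeR adjusted p = 0.931). Ccne1, a cyclin that activates Cdk2 at the start of S phase, ran from 4.02 to 24.4 CPM with a median of 10.6 in the 7 PBS pools, and from 5.99 to 9.70 CPM with a median of 8.40 in the 6 MTP10-HDL pools in HSCs. All MTP10-HDL pools were below the PBS median, at log2 -0.45 (SE 0.33, edgeR adjusted p = 0.695), with PBS 1 the highest pool and a value of -0.12 without it. In MPPs Ccne1 was at 19.2 and 8.94 CPM in the PBS pools and 19.3, 14.5 and 16.7 CPM in the MTP10-HDL pools, overlapping, at log2 0.26 (SE 0.36), -0.19 without PBS 3 and 0.90 without PBS 2. Ccne2, the second cyclin E, ran from 7.88 to 16.7 CPM with a median of 11.5 in the 7 PBS pools, and from 7.97 to 15.4 CPM with a median of 10.7 in the 6 MTP10-HDL pools in HSCs, at log2 -0.08 (SE 0.25), and turned to 0.041 without PBS 2, 0.012 without MTP10-HDL 5 and 0.0073 without MTP10-HDL 6. Ccne2 in MPPs was at 34.0 and 33.3 CPM in the PBS pools and 44.5, 45.9 and 35.4 CPM in the MTP10-HDL pools, apart by log2 0.32 (SE 0.21). Its gene span overlaps Ints8 over 39.2% of its length.

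A score per library summarises the members (log2 CPM, with 2 as the prior count, centred on each gene's mean within a cell type and averaged over members). In HSCs the scores of MTP10-HDL 1 to 6 were -0.33, 0.19, 0.20, 0.21, 0.14 and 0.26. The PBS 1 to 7 scores were 0.08, -0.12, -0.28, 0.08, -0.12, -0.10 and -0.21. Of the MTP10-HDL pools 5 of 6 lay above every PBS pool, and MTP10-HDL 1 lay below every PBS pool. Without MTP10-HDL 1, groups that do not overlap were seen for 3 of 40 members (7.50%), against 0.482% of all genes. That library had the lowest score over these same members, and leaving out any other HSC library gave 0 of 40. In MPPs the scores were 0.23, 0.20 and 0.12 in MTP10-HDL and -0.29 and -0.26 in PBS. The role groups did not all follow that mean within a library. In HSC PBS 4 the score was 0.27 over MCM2 to MCM7 and -0.53 over the S phase entry genes, while in PBS 5 the S phase entry genes were at 0.55 and the clamp and its loader at -0.40. The score over 20 mitosis genes was -0.67 in HSC MTP10-HDL 1 and -0.01 to 0.37 in the other MTP10-HDL pools, against -0.23 to 0.18 in PBS. A larger share of cells in S phase and more replication mRNA per cell cannot be told apart in such pools, nor can fewer cells of a type and less RNA per cell.

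**Figure D5:**
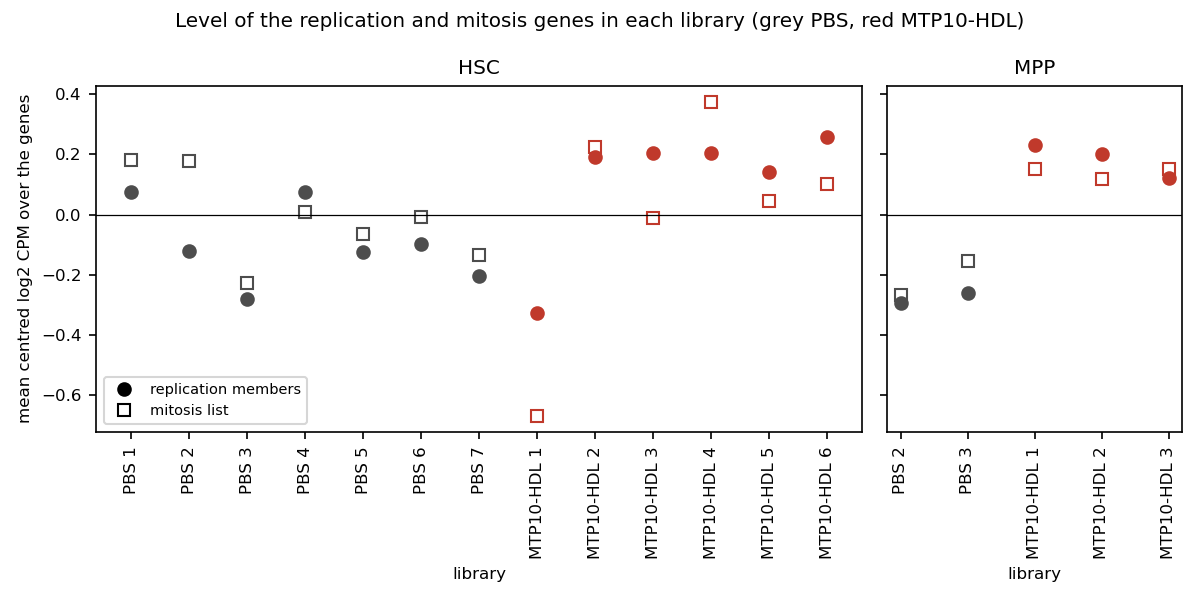
Mean centred log2 CPM (y axis) of the replication members (filled circles) and the mitosis list (open squares) in each library (x axis), PBS in grey and MTP10-HDL in red, centred within a cell type. HSC MTP10-HDL 1 is the lowest library for both lists, at -0.33 and -0.67, and the MPP groups do not overlap for either list.

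Further lists held other genes of replication, not among the members. Their shares above 0 stand against 59.0% of all genes with at least 10 CPM in HSCs and 59.7% in MPPs. Of 18 other replisome genes, 15 (83.3%) were above 0 in HSCs (median 0.21) and 16 (88.9%) in MPPs (median 0.42), with 2 higher at an unadjusted p under 0.05 in each and none past the FDR. Dna2, a nuclease of lagging-strand processing, was at log2 0.45 (SE 0.13) in HSCs, and Rpa3, the small subunit of the single-strand binding protein, at log2 0.83 (SE 0.24) in MPPs. Of 12 other nucleotide supply genes, 11 (91.7%) were above 0 in HSCs (median 0.25) and 10 (83.3%) in MPPs (median 0.38). All 7 chromatin copying genes were above 0 in both cell types (medians 0.29 and 0.50), among them Hat1, a histone acetyltransferase, at log2 0.38 (SE 0.16) and log2 0.81 (SE 0.27). Of 17 other licensing and origin firing genes, 11 (64.7%) were above 0 in HSCs (median 0.03), a share near that of all genes, and 14 (82.4%) in MPPs (median 0.27), with 1 lower at an unadjusted p under 0.05, Orc4 in HSCs at log2 -0.39 (SE 0.18). No gene of these lists passed the FDR threshold.

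Genes of other cell cycle steps set HSCs and MPPs side by side. Mitosis genes were above 0 for 13 of 20 in HSCs (65.0%, near the 59.0% of all genes with at least 10 CPM, median 0.03) and for 20 of 20 in MPPs (median 0.35). Aurkb, a kinase of chromosome segregation and cytokinesis, was the only one of them at an unadjusted p under 0.05 in HSCs, at log2 0.55 (SE 0.16), with 5 of 6 MTP10-HDL pools above every PBS pool. Its value was above that of Chaf1b, the highest member. The mitosis list was not refitted without HSC MTP10-HDL 1, so its HSC share and median include that low library. Over this list HSC MTP10-HDL 1 scored -0.67, the other HSC MTP10-HDL pools -0.01 to 0.37 and the HSC PBS pools -0.23 to 0.18. Mki67, a proliferation marker, was at log2 -0.22 (SE 0.13) in HSCs and log2 0.30 (SE 0.34) in MPPs. Cdk1, the mitotic kinase, was at log2 0.16 (SE 0.17) in HSCs and log2 0.59 (SE 0.19) in MPPs, where its MTP10-HDL pools at 146 to 166 CPM lay above its PBS pools at 102 to 103 CPM. Of 15 other E2F and G1/S genes, 10 were above 0 in HSCs (median 0.05) and 11 in MPPs (median 0.26). CDK inhibitors and quiescence genes were above 0 for 5 of 6 in HSCs (median 0.10) and 2 of 6 in MPPs (median -0.24). Btg2, an antiproliferative gene, was at log2 -0.70 (SE 0.23) in MPPs and log2 -0.91 (SE 0.51) in HSCs, and Cdkn1c, the inhibitor p57 linked to HSC quiescence, at log2 -0.58 (SE 0.45) and log2 0.01 (SE 0.32). No gene of these lists passed the FDR threshold in either cell type.

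Whether the response of a member differed between MPPs and HSCs was tested in 1 fit over all 18 libraries, as the MPP log2 fold change minus that of HSCs. No member of 41 was called, and 1 of 24470 genes was (0.00409%). For 38 of 41 members the value was larger in MPPs, with a median difference of 0.26, against 0.09 for all genes. How many of all genes were larger in MPPs was not counted. At an unadjusted p under 0.05 stood 1 of 41 members, a share below that of all genes (945 of 24470). That member was Prim2, at a difference of 0.78 (95% interval 0.17 to 1.39, edgeR adjusted p = 1). For Pcna the difference was 0.50 (-0.25 to 1.26) and for Mcm2 it was 0.12 (-0.55 to 0.79). For Chaf1b it was -0.23 (-0.89 to 0.43), 1 of the 3 members with a larger value in HSCs. The intervals of Pcna, Mcm2 and Chaf1b hold 0 as well as differences of the size of the responses themselves. Kit and cell type differ together between the tables, so a difference in response and one in kit cannot be told apart.

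Markers of other cell types also differed between the groups, and their part in the member differences was not tested. Erythroblast markers were lower for 9 of 9 genes in HSCs (median log2 -1.32), with summed levels of 123 to 428 CPM in PBS and 60.4 to 127 CPM in MTP10-HDL. In MPPs they were lower for 8 of 9 (median -2.12), at 62.4 to 100.2 CPM in PBS and 20.1 to 41.9 CPM in MTP10-HDL. B cell markers were lower for 7 of 7 genes tested in HSCs (median -1.56), summing to 36.3 to 390.3 CPM in PBS and 39.1 to 95.6 CPM in MTP10-HDL. The MPP B cell list was split, with 4 of 8 genes higher and 4 lower (median -0.06) and sums of 308 to 419 CPM in PBS and 257 to 413 CPM in MTP10-HDL. Neutrophil markers were higher for 8 of 8 genes in HSCs (median 0.81) with overlapping sums, 88.7 to 3396 CPM in PBS and 535 to 4925 CPM in MTP10-HDL, and for 5 of 8 in MPPs (median 0.20). Monocyte and macrophage markers were lower for 5 of 8 genes in MPPs (median -0.58), 3 of them at an unadjusted p under 0.05, with sums of 345 to 364 CPM in PBS and 186 to 239.9 CPM in MTP10-HDL that did not overlap. In HSCs that list was higher for 6 of 8 (median 0.25), and its sums overlapped. T and NK cell markers were higher for 4 of 4 genes tested in MPPs (median 0.80), summing over all 8 to 41.7 to 50.2 CPM in PBS and 54.0 to 89.6 CPM in MTP10-HDL. Most of that sum was Nkg7, at 36.2 to 44.9 CPM in PBS and 43.8 to 80.0 CPM in MTP10-HDL, while the T cell genes Cd3d, Cd3e, Cd3g and Trac were too low for a test. In HSCs 4 of 6 were higher (median 0.17). Megakaryocyte markers were higher for 3 of 4 genes tested in HSCs (median 0.25) and 1 of 4 in MPPs (median -0.63), where their sums were 29.5 to 44.2 CPM in PBS and 43.1 to 44.4 CPM in MTP10-HDL and Gp1bb was at 0. Stroma and endothelium markers were lower for 3 of 5 genes tested in HSCs (median -0.01) and 4 of 5 in MPPs (median -0.75). HSC MTP10-HDL 1, the library lowest in replication genes, was the highest of the 13 in summed neutrophil markers (4925 CPM) and monocyte and macrophage markers (2168 CPM). In MPPs the stem and progenitor list was lower for 8 of 11 genes (median -0.48). Procr, Hlf and Fgd5 were among those lower at an unadjusted p under 0.05, and Cd48, carried by MPPs more than by long-term HSCs, was higher at that level. The summed level of that list was 3136 to 3373 CPM in PBS and 3102 to 3184 CPM in MTP10-HDL. Immunoglobulin counts made up 6.20% to 12.5% of the MPP PBS libraries and 2.76% to 4.26% of the MTP10-HDL ones. Immunoglobulin, mitochondrial and ribosomal RNA genes were also left out before scaling. At an unadjusted p under 0.05, 8 of 40 members were then higher in HSCs (20%, all genes 4.25%). In MPPs 13 of 41 were (31.7%, all genes 2.11%). Ribosomal RNA genes took 1.26% to 1.47% of the MPP PBS libraries and 0.508% to 0.915% of the MTP10-HDL ones, again without overlap.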

How the data were processed

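RNA was sequenced from pools of HSCs (7 PBS, 6 MTP10-HDL) and of sorted MPPs (2 PBS, 3 MTP10-HDL). The authors deposited raw read counts per Ensembl gene, 1 table per cell type. Per the labels' protocols, HSC complementary DNA was amplified before library construction and read as single 50-base reads, while MPP RNA was poly-A selected, mixed with insect carrier RNA and prepared with a directional kit. By the submitters' processing notes, the tools used on HSC data were CASAVA 1.8.2 with STAR 2.5.2b, and those on MPP data STAR 2.7.2a with DESeq2 1.24 in R 3.6.1, on mm10. How reads were counted (tool, annotation, strand) is not given in the sources used here. No column was left out. HSC PBS libraries carry the table's numbers, 1 to 7, where the labels number 1 of them 8. The 12 ATAC-seq samples were not analysed here.

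Each table was fitted in R 4.3.3 with edgeR 4.0.16 (TMM, filterByExpr, quasi-likelihood F test, Benjamini-Hochberg over all genes tested, FDR 0.05), and a joint fit of 4 group means tested the difference between responses. Scripts were tested on simulated counts. Per-library values are given for the member of smallest p in each of 9 role groups per cell type and for Mcm2, Pcna, Cdc6, Rrm2, E2f1, Chaf1b and Lig1. From the other lists at most the 2 of smallest p, with Mki67, Cdk1 and Cdkn1c, are named. Members and lists were chosen with earlier results of these data known. The alternatives were DESeq2 1.42.0 (test or size factors), no filter, other library sizes, a replicate block, a covariate for library quality and leaving out each library. Leaving out PBS 5 with PBS 7, the block-free fit over shared numbers and the shares at 10 CPM or more were added after the data were seen.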

Additional observations from a re-analysis of the deposited data

Results flagged for a closer look

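Of 42 groups of libraries examined for a single distant value, 5 were set apart, where chance sets apart about 1 in 20. HSC MTP10-HDL 1 had the lowest score over all members, -0.327, while the other 5 MTP10-HDL libraries lay between 0.140 and 0.258. In the mitosis list the same library was at -0.669, against -0.01 to 0.375 in the others. Gins2 was at 68.4 CPM in HSC MTP10-HDL 4 and 25.9 to 41.6 CPM in the other MTP10-HDL libraries. E2f1 was at 43.0 CPM in HSC PBS 5 and 11.0 to 17.7 CPM in the other PBS libraries. Ccne1 was at 24.4 CPM in HSC PBS 1 and 4.02 to 11.7 CPM in the other PBS libraries. What sets these libraries apart was not tested.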

How the results depend on the processing

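No member was called at an FDR of 0.05 under any alternative run, in either cell type or for the difference between them. Over all genes, HSCs had 0 called, and 108 with DESeq2, 44 with no filter on low counts and 0 to 1 when a library was left out, where the 1 came without MTP10-HDL 4. MPPs had 0, and 163 with DESeq2, 345 with no filter, 43 with the replicate block and 0 to 17 when a library was left out, where the 17 came without PBS 3. Leaving out an MPP PBS library leaves 1 PBS sample, which is then assumed to vary like the MTP10-HDL samples. The cause of these changes was not tested.

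Members higher at an unadjusted p under 0.05 numbered 9 in HSCs, and 5 with DESeq2, 2 without PBS 5 and PBS 7, and 4 to 19 when each library was left out. In MPPs they numbered 15. Leaving out an MTP10-HDL library gave from 3 without MTP10-HDL 1 (7.32%, all genes 1.42%) to 20 without MTP10-HDL 2 (48.8%, all genes 3.04%). With the replicate number as a block the counts were 4 in HSCs (all genes 2.92%) and 1 in MPPs (all genes 0.576%), against 5 and 3 without the block over the same libraries (all genes 3.16% and 1.42%). Deviations of same-numbered libraries from their group means correlated at -0.19 to 0.19 in HSCs, and at -0.17 and -0.03 in MPPs. Whether same-numbered libraries shared a day or batch cannot be told from these values. The 2 MPP PBS libraries deviate by equal and opposite amounts, and the HSC PBS numbers may not match those of the labels. In HSCs 2 of the 6 PBS libraries correlated best with their own number.

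The median of members in HSCs was 0.16, 0.14 and 0.39 within the libraries with few detected genes, those with high ribosomal RNA and the rest (29, 30 and 33 of 40 members above 0). It was 0.23 with those groups as a covariate. Each group held few libraries. Those with few detected genes were PBS 1, PBS 4, MTP10-HDL 2 and MTP10-HDL 3. Those with high ribosomal RNA were PBS 2, PBS 3, MTP10-HDL 1 and MTP10-HDL 4. Medians of all genes within these groups are not given here, so a shift of the members cannot be told from one of all genes. Of 608 alternative values of single named members, 599 kept their direction and side of the threshold, and 9 turned. Pcna in HSCs was -0.027 without PBS 5 and PBS 7. The other 8 turned when 1 library was left out, with these lowest and highest values: in HSCs Cdc6 -0.20 and 0.011 (above 0 without PBS 1), Gins2 -0.029 and 0.28 (below 0 without MTP10-HDL 4), E2f1 -0.048 and 0.41 (below 0 without MTP10-HDL 2, or PBS 3 at -0.0087) and Ccne2 -0.20 and 0.041 (above 0 without PBS 2, or MTP10-HDL 5 at 0.012, or MTP10-HDL 6 at 0.0073), and in MPPs Ccne1 -0.19 and 0.90 (below 0 without PBS 3).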
